A study of Mus musculus with 9 samples.

Results

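The pro-B and pre-B identity genes examined here are the 10 genes Ebf1, Pax5, Cd79a, Cd79b, Vpreb1, Vpreb3, Igll1, Rag1, Rag2 and Dntt. They were chosen by name, with earlier results of these data known, because they define the earliest stages of B cell development. All 10 were found, by Ensembl identifier, among the 37980 genes of the deposited table, and all 10 passed the filter on low values. RNA was sequenced from sorted myeloid progenitors (MPs, Lin-c-kit+Sca1- bone marrow cells) of C57BL/6 mice, with 4 samples from recipients of NA multipotent progenitors (NA MPs) and 5 samples from recipients of WT multipotent progenitors (WT MPs). NA is the Nup98-Hoxa10hd fusion, which joins part of the nucleoporin NUP98 to the homeodomain of HOXA10. In the donor mice Vav-Cre switched the fusion on from the Rosa26 locus, so that the blood system as a whole carried it. Whether the WT donors carried Vav-Cre is not given in the sources used here. Irradiated adult recipients received sorted donor progenitors together with helper bone marrow cells, and each sample was made of 100000 MPs. NA MPs were taken as Tdtomato+ donor cells and WT MPs as CD45.2+ cells, both 3 months after transplantation by the labels, whereas the methods text gives a later time. The methods elsewhere describe recipients as CD45.2+ as well, and the paper followed donor cells in blood as Tdtomato+ or CD45.1+. The origin of the WT MPs, from the donor, the helper marrow or the recipient, therefore cannot be told apart. Whether a sample was a single mouse is not stated, so that p-values measure the spread between these samples.

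B cells arise from lymphoid progenitors under a small set of transcription factors. EBF1 and the E proteins switch on the B cell programme, and PAX5 then commits the cell to it. Pro-B cells use the RAG1 and RAG2 recombinase to cut and rejoin the immunoglobulin heavy chain genes, while terminal deoxynucleotidyl transferase (Dntt) adds bases at the joins. A pre-B cell shows the new heavy chain on its surface together with a surrogate light chain, made of the Vpreb1 and Igll1 proteins, and the signalling chains CD79A and CD79B. This programme is not a defining feature of myeloid progenitors, and the sort removed cells with B220 on their surface while the IL-7 receptor is not named in the stain for MPs.

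Values are normalised counts, which are RSEM gene counts that the authors had divided by a size factor for each sample. The reads recovered from these values ran from 5557718 to 8106140 per sample, so that a normalised count of 1 stands for about 1 read and 3 reads correspond to between 2.48 and 3.60 normalised counts. This floor and the counting intervals given here leave out all other error. The partners of the fusion were raised in every NA MP sample. Hoxa10 was at 155, 124, 120 and 116 normalised counts in NA MP replicates 1 to 4 and between 5.59 and 12.0 in the WT MPs, and Nup98 was at 839 to 1025 against 567 to 628. The defining genes of myeloid progenitors were present at high levels in both groups, with Mpo, the granule peroxidase, at 102497 to 112142 normalised counts in NA MPs and 101201 to 105687 in WT MPs. NA MP replicate 1 stood apart from the other NA MPs on the second principal component of all tested genes, which held 6.12% of the variance, at 20.3 against -8.93 to -3.01, and it also had the fewest reads.

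All 10 genes were higher in NA MPs than in WT MPs, and for each of them the lowest NA MP sample was above the highest WT MP sample. The WT MP values were low for most of them, between 1.86 and 25.9 normalised counts for all but Cd79b and Dntt. In limma, fitted to log2(normalised count + 1) over 11987 genes with Benjamini-Hochberg adjustment, 16.9% of the tested genes were higher in NA MPs at an adjusted p under 0.05 and 13.5% were higher without overlap of the groups. Among the tested genes 34.3% were called in either direction, 2.56% were called and over 2-fold higher and 0.359% were called and over 8-fold higher, against 9 and 7 of the 10 members. Pax5 and Vpreb3 had no WT MP sample at 10 or more and passed the filter only through their NA MP values, so their calls are no support. Of the other 8 members all 8 were called, 7 over 2-fold and 5 over 8-fold, with a median log2 fold change of 3.22 against -0.0081 over all tested genes. Ebf1 is in these counts and in the median, but only 2 of its WT MP samples were at 10 or more. It thus also passed the filter, 10 or more in at least 4 samples, only through its NA MP values. Its call is no support either. A filter of 10 or more in every sample left 6 members, all called, beside 1832 of 11085 genes called higher. For every member the exact two-sided permutation test of 4 against 5 samples gave p = 0.0159, the smallest it can give. In bulk RNA, more cells with the transcripts and more RNA per cell cannot be told apart. None of these values therefore says how many cells carried the transcripts.

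**Figure D1:**
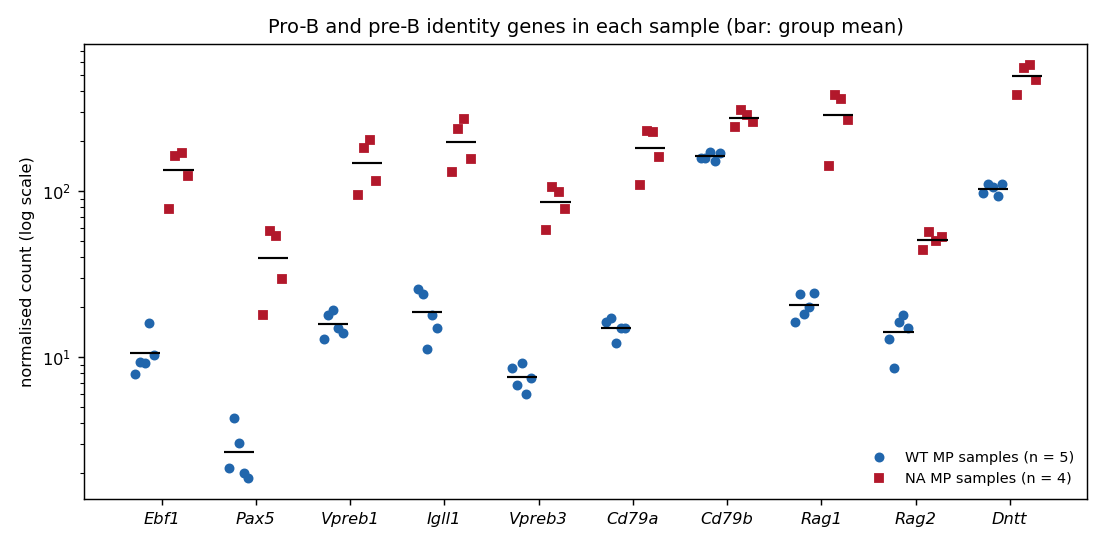
Normalised counts (log scale) of the 10 genes in each of the 4 NA MP samples (squares) and 5 WT MP samples (circles), with a bar at each group mean. The NA MP samples lie above all WT MP samples for every gene, and the gap is narrowest for Cd79b, at 245 to 307 against 152 to 173.

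The initiating factor Ebf1 (ENSMUSG00000057098, chr11:44617317-45008091 of GRCm38, plus strand), which opens B cell genes for transcription, had 78.0, 163, 169 and 124 normalised counts in NA MP replicates 1 to 4. In WT MP replicates 1 to 5 it had 7.94, 9.41, 9.17, 16.0 and 10.2. The lowest NA MP sample was thus well clear of WT MP replicate 4, the highest of its group. The fitted log2 fold change was 3.52 ± 0.21 (SE, n = 4 and 5).

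Pax5 (ENSMUSG00000014030, chr4:44524757-44710487, minus strand), the factor that holds cells in the B lineage, was the least abundant member. It had 18.01, 57.6, 53.4 and 29.8 normalised counts in the NA MPs and 2.16, 4.28, 3.06, 2.001 and 1.86 in the WT MPs. Both groups were separated, but each WT MP sample held only a few reads, 14 in all against 156 in the NA MPs, a ratio of 14.6 at equal depth with an exact 95% interval of 8.45 to 27.3 for counting error. The fitted log2 fold change was 3.37 ± 0.33 (SE). The annotated exons of Pax5 overlap 125 bases of the gene Gm12462 on the other strand, which was at 0 in all samples except NA MP replicate 4.

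The surrogate light chain genes Igll1 (ENSMUSG00000075370, chr16:16860671-16863985) and Vpreb1 (ENSMUSG00000059305, chr16:16868403-16870843) are neighbours on the minus strand. Their promoter windows, 250 bases before to 50 after the start site in RefSeq (GRCm38.p6), are shown because the products of these neighbours form the same complex. The windows lie at chr16:16863936-16864235 for Igll1 and chr16:16869206-16869505 for Vpreb1, both minus strand, and capitals mark the E-box letters CAGNTG, searched on both strands, which E proteins are known to bind.
Igll1: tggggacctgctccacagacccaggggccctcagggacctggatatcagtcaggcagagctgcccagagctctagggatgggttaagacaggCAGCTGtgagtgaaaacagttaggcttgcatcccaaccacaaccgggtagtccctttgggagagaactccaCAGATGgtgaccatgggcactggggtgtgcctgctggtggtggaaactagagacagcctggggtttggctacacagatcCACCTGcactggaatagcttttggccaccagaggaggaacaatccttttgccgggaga
Vpreb1: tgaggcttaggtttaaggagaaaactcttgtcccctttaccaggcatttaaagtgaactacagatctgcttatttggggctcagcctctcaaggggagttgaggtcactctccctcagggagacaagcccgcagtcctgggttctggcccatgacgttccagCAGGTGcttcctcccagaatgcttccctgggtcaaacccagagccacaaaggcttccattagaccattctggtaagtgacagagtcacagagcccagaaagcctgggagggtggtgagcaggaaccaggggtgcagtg
The Igll1 window held 3 E-boxes, starting at -158, -87 and -8 from the start site, and the Vpreb1 window held 1, at -88. Such letters were found in 6 of the 10 windows of the 9 members with a RefSeq entry and in 51.4% of all 32851 windows, so that they are common in any promoter of this length. The letters CCCNNGGG, the core of the motif bound by EBF factors, were found in 1 of the 10 member windows, in Igll1 at -231, and in 13.7% of all windows. In the members no match of one motif overlapped a match of the other.

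Igll1 had 131, 239, 272 and 157 normalised counts in the NA MPs and 25.9, 24.0, 11.2, 18.01 and 14.9 in the WT MPs. Vpreb1 had 94.8, 182, 203 and 115 in the NA MPs and 12.9, 17.97, 19.4, 15.01 and 14.0 in the WT MPs. Both genes put the NA MP samples in the same order, with replicate 3 highest and replicate 1 lowest. The log2 fold changes were 3.34 ± 0.30 (SE, adjusted p = 2.51e-05 by limma) for Igll1 and 3.10 ± 0.18 (SE, adjusted p = 2.12e-14) for Vpreb1.

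Vpreb1 has a close copy, Vpreb2 (ENSMUSG00000059280), whose transcript was 97.4% identical over the aligned 759 bases with a longest identical run of 196 bases, so the division of reads between them by the counting is uncertain. Vpreb2 had 6.00, 23.3, 22.3 and 19.8 normalised counts in the NA MPs and was at 0 in the WT MPs except for replicate 2, at 1.71. It was too low to be tested. An exon overlap of 108 bases with Top3b on the other strand also touches Vpreb1, and Top3b had a log2 fold change of 0.023 (adjusted p = 0.647 by limma).

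Vpreb3 (ENSMUSG00000000903, chr10:75943057-75949657, plus strand) encodes a relative of the surrogate light chain that associates with immunoglobulin chains inside the cell. It had 58.8, 106, 99.1 and 78.5 normalised counts in the NA MPs and 8.63, 6.84, 9.17, 6.00 and 7.45 in the WT MPs. The groups did not overlap, with 338 reads in the NA MPs and 39 in the WT MPs, a ratio of 11.4 at equal depth with an exact 95% interval of 8.14 to 16.3 for counting error. The fitted log2 fold change was 3.31 ± 0.21 (SE).

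The signalling chains of the receptor did not behave alike. Cd79a (ENSMUSG00000003379, chr7:24897381-24902197, plus strand) had 109, 231, 227 and 161 normalised counts in the NA MPs and 16.2, 17.1, 12.2, 15.01 and 14.9 in the WT MPs. Cd79b (ENSMUSG00000040592, chr11:106311341-106314762, minus strand) had 245, 307, 289 and 260 in the NA MPs and 159, 159, 173, 152 and 171 in the WT MPs. Cd79b was thus already abundant in the WT MPs, where Cd79a was scarce. The log2 fold change was 3.45 ± 0.17 (SE, adjusted p = 1.33e-17 by limma) for Cd79a and 0.75 ± 0.074 (SE, adjusted p = 2.58e-11) for Cd79b, whose mean was 1.69 times higher. Against a 2-fold threshold Cd79b was the only member not called, with an adjusted p of 1.

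The recombinase genes Rag1 (ENSMUSG00000061311, chr2:101638282-101649501, minus strand) and Rag2 (ENSMUSG00000032864, chr2:101624718-101632529, plus strand) lie next to each other and are transcribed towards each other. Their promoter windows at chr2:101649483-101649782 (minus strand) and chr2:101624462-101624761 (plus strand) are shown because the neighbours rose to different extents, again with E-box letters in capitals.
Rag1: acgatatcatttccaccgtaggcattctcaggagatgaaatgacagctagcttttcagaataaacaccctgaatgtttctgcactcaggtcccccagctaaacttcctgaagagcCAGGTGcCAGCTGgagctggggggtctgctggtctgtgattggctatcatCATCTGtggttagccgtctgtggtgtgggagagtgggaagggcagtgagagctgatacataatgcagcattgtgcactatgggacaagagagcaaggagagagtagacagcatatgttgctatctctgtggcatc
Rag2: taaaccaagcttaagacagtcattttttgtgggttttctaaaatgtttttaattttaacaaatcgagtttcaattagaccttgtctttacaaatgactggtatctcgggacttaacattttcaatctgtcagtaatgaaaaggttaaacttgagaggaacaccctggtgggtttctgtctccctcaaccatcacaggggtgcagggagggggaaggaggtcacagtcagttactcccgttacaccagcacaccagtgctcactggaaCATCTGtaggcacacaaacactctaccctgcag
The Rag1 window held 3 E-boxes, at -135, -128 and -85, and the Rag2 window held 1, at 17 bases past the start site. Neither window held the EBF core letters.

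Rag1, the subunit that carries the cutting site of the recombinase, had 143, 381, 360 and 268 normalised counts in the NA MPs and 16.2, 24.0, 18.3, 20.01 and 24.2 in the WT MPs. Its log2 fold change of 3.66 ± 0.30 (SE, adjusted p = 2.43e-05 by limma) was the largest of the 10 in this fit, though its interval of 2.98 to 4.35 took in the estimates of 6 other members. Rag2, its partner, had 44.4, 56.6, 50.1 and 52.9 in the NA MPs and 12.9, 8.56, 16.3, 18.01 and 14.9 in the WT MPs, a log2 fold change of 1.81 ± 0.20 (SE, adjusted p = 7.20e-10). Rag2 was the flattest of the strongly raised genes among the NA MPs, with less than 13 normalised counts between the lowest and the highest sample. Annotated exons of B230118H07Rik overlap 80 bases of Rag1 and 208 bases of Rag2, and that gene had a log2 fold change of -0.032 (adjusted p = 0.793 by limma).

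Dntt (ENSMUSG00000025014, chr19:41029275-41059525, plus strand), which diversifies the joins of antigen receptor genes and is already active in early lymphoid progenitors, was the most abundant member by normalised count in the NA MPs. It had 381, 551, 580 and 470 in the NA MPs and 98.2, 111, 106, 93.1 and 111 in the WT MPs. Its values were tight within the WT MPs, and its log2 fold change was 2.23 ± 0.097 (SE, adjusted p = 3.87e-14 by limma).

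**Figure D2:**
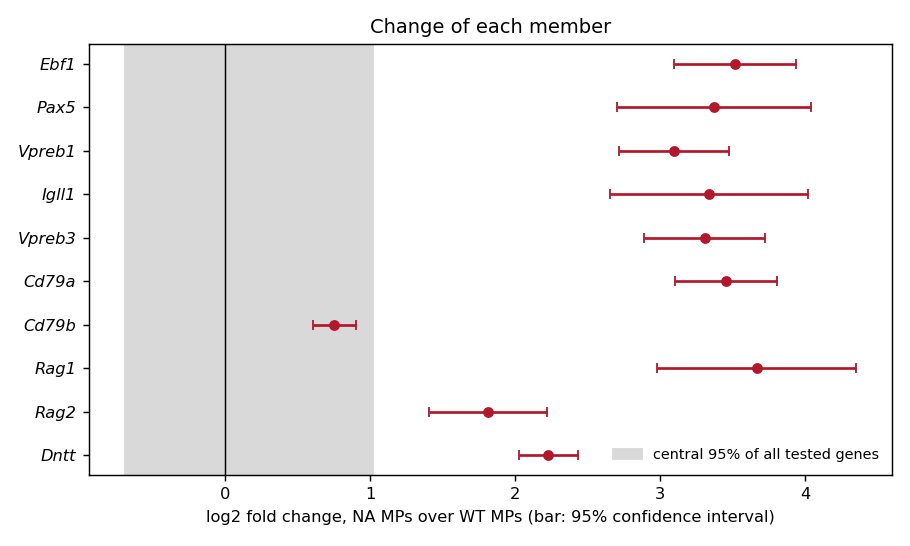
Log2 fold change of each gene in NA MPs over WT MPs from limma, with its 95% confidence interval, over a grey band that holds the central 95% of all tested genes. Cd79b at 0.75 lies inside the band, Rag2 and Dntt at 1.81 and 2.23 lie beyond it, and the other 7 genes lie between 3.10 and 3.66.

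The order of the members changed when the level was set per kilobase of exon, counted over the union of all annotated exons of a gene. This union can be longer than a transcript. It was 2164 bases for Igll1, whose longest coding transcript had 870, and 1199 bases for Vpreb1, against 766. The order between genes below holds for this choice of length only, and other lengths were not tried. In the WT MPs Cd79b stood first at 114 ± 6.2 normalised counts per kb (SD, n = 5), above Dntt at 45.3 ± 3.5, with no overlap between them. Below them Vpreb1, Cd79a, Vpreb3 and Igll1 had mean levels of 13.2, 10.4, 8.87 and 8.69 per kb, each overlapping the next in its sample range, followed by Rag2 at 4.13 and Rag1 at 3.11, which also overlapped. Ebf1 at 1.08 and Pax5 at 0.302 per kb were lowest, each apart from its neighbours. In the NA MPs Dntt at 216 ± 39 (SD, n = 4) and Cd79b at 193 ± 20 per kb overlapped at the top. Cd79a, Vpreb1, Vpreb3 and Igll1 formed an overlapping series from 125 to 92.2 per kb, and Rag1 at 43.6 stood alone below it. Rag2 at 14.9 and Ebf1 at 13.7 overlapped, and Pax5 at 4.49 was again lowest.

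Partners that work in the same complex or at the same step were compared by their ratio within each sample, which does not depend on the scaling of the libraries. Of 6 pairs, 3 had ratios that did not overlap between the groups. The ratio of Cd79a to Cd79b was 0.446, 0.750, 0.785 and 0.619 in the NA MPs and between 0.0706 and 0.108 in the WT MPs. The difference in log2 ratio, with 2 added to each normalised count, was 2.63 (exact permutation p = 0.0159, adjusted over the 6 pairs 0.0317). The ratio of Rag1 to Rag2 was 3.22, 6.73, 7.18 and 5.06 in the NA MPs and 1.25, 2.80, 1.13, 1.11 and 1.63 in the WT MPs, a difference of 1.86 (exact permutation p = 0.0159, adjusted 0.0317). Dntt moved the other way relative to Rag1, from 4.58 to 6.07 times its value in the WT MPs to 1.45 to 2.66 times in the NA MPs, a difference of -1.39 (exact permutation p = 0.0159, adjusted 0.0317). With 1 sample left out the smallest adjusted p these pairs could reach rose, and it ran up to 0.0714 while the differences kept their signs.

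The ratio of Vpreb1 to Igll1 was nearly constant in the NA MPs, at 0.725, 0.763, 0.746 and 0.732, and spread from 0.50 to 1.73 in the WT MPs, where both genes rested on few reads. Its difference in log2 ratio was -0.25 ± 0.26 (SE, exact permutation p = 0.492, adjusted 0.492), and without WT MP replicate 1, the lowest of its group, it was -0.43 with an adjusted p of 0.0429. Pax5 to Ebf1 differed by -0.35 ± 0.26 (SE, exact permutation p = 0.238, adjusted 0.286). Vpreb1 to Ebf1 differed by -0.38 ± 0.20 (SE, exact permutation p = 0.127, adjusted 0.190), and without WT MP replicate 4 by -0.53 with an adjusted p of 0.0429. No difference was called for these 3 pairs with all 9 samples, which does not show that their members rose alike.

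**Figure D3:**
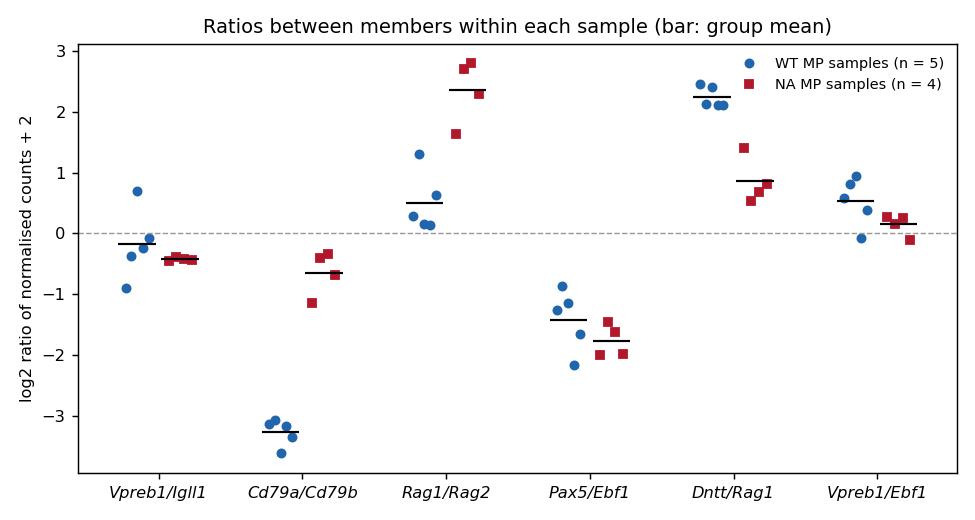
Log2 ratio of the normalised counts (2 added to each) of 6 pairs of members within each sample, with NA MPs as squares, WT MPs as circles and a bar at each group mean. The groups are apart for Cd79a/Cd79b, Rag1/Rag2 and Dntt/Rag1, and the 4 NA MP samples coincide almost fully for Vpreb1/Igll1.

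The members also varied together among the NA MPs. NA MP replicate 1 was the lowest of the 4 samples for 10 of 10 members, against 27.2% of all tested genes and 31.6% of the 307 genes called and over 2-fold higher. NA MP replicate 4 was second lowest for 9 of 10, the exception being Rag2, and this order of replicate 1 below replicate 4 below the others held for 10.4% of tested genes and 18.6% of those over 2-fold higher. It was not tested whether this order is particular to the members, and it was also found in 6 of 12 defining myeloid progenitor genes, in 8 of which replicate 1 was lowest, and in 7 of 17 tested genes of pre-B cell receptor signalling. The highest sample was replicate 2 for 6 members and replicate 3 for 4. The WT MPs had no common order, since each of the 5 samples was lowest for between 1 and 3 members. As these are 4 samples and the members share their libraries, no correlation among them was computed.

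When the rise of each gene over its WT MP mean was divided by the average rise of that gene, NA MP replicates 1 to 4 reached 0.611, 1.27, 1.25 and 0.873 on average over the members. Replicate 1 thus had a smaller rise than replicate 2 for every gene, and the shortfall was deepest for Pax5, at 0.414, and shallowest for Rag2, at 0.821. The summed normalised count of the 10 genes was 1302, 2274, 2303 and 1717 in NA MP replicates 1 to 4 and lay between 355 and 384 in the WT MPs. Even the lowest NA MP sample was therefore well above every WT MP sample.

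**Figure D4:**
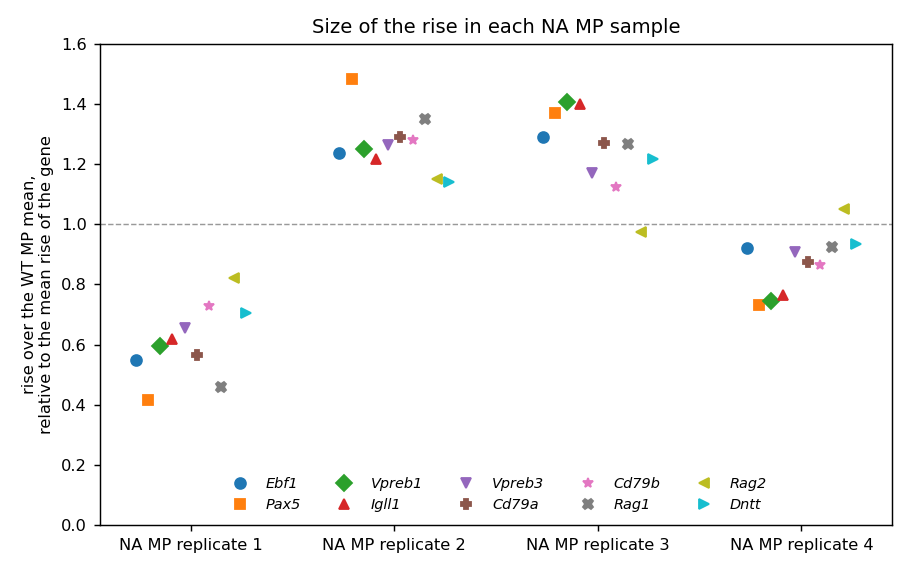
Rise of each gene over its WT MP mean in each NA MP sample, divided by the average rise of that gene, so that 1 (dashed line) is the average. Every gene lies below 1 in replicate 1 and above 1 in replicate 2, and Rag2 keeps the narrowest range, from 0.821 to 1.15.

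The spread differed between the members. On the log2 scale the SD over the 4 NA MPs was largest for Pax5 at 0.76 and Rag1 at 0.65, followed by Vpreb1, Ebf1, Cd79a and Igll1 between 0.49 and 0.52. It was 0.38 for Vpreb3, 0.27 for Dntt and 0.15 for both Cd79b and Rag2. The median over the members was 0.50, compared with 0.10 over all tested genes and 0.29 over the genes over 2-fold higher. In the WT MPs the median over the members was 0.23. Without NA MP replicate 1 the members' median in the NA MPs fell to 0.26, compared with 0.22 over the genes over 2-fold higher, and replicate 4 was the lowest of the remaining 3 samples for 9 of 10 members, against 33.7% of tested genes. All 10 members remained called without replicate 1, with log2 fold changes from 0.81 for Cd79b to 3.97 for Rag1. The calls of Pax5, Vpreb3 and Ebf1 are no support here either. NA MP replicate 1 had the fewest reads, 5557718, but replicate 4, the next lowest for the members, had the most, 8106140. Of the fusion partners, Hoxa10 was highest in replicate 1, whereas Nup98 was highest in replicate 4 and lowest in replicate 2. Neither gene count separates transcripts of the fusion from those of the endogenous gene. Whether depth, the general difference of replicate 1 or the level of the fusion had a part in this order was not tested.

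Among genes that are not members, the 5 that followed the members' pattern over the 4 NA MPs most closely, out of 2020 higher genes, included Bmf, Lef1, Bfsp2 and Emp1. The measure was the root mean square difference between a gene's log2 deviations and the members' mean deviations, and it ran from 0.068 for Bmf to 0.093 for Emp1 among these. Bmf, a pro-apoptotic BCL2 family member, had 30.01, 56.6, 51.2 and 37.2 normalised counts in the NA MPs and 10.2 to 14.5 in the WT MPs (log2 fold change 1.71, adjusted p = 1.33e-08 by limma). Over all 9 samples the closest were Akap12, Il7r, Irf4, Chst3 and Blnk, with differences from 0.247 to 0.328 on the log2 scale. Some of these genes were also on the list of early B cell genes below.

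Of 29 other genes of early B cell development, 24 were tested, 19 rose and 2 fell. The median log2 fold change was 0.82, and 11 were called and over 2-fold higher. Of these 11, Il7r, Bst1, Enpep, Spib and Irf4 had no WT MP sample at 10 or more and passed the filter only through their NA MP values. The other 6 had at least 1 such sample. Of those, Lef1 and Pou2af1 had fewer than 4 and so also passed only through their NA MP values. The calls of the genes that passed in this way are no support. The receptor Il7r, through which interleukin-7 sustains B cell progenitors, had 39.6, 57.6, 43.4 and 47.9 normalised counts in the NA MPs and 4.002 to 6.52 in the WT MPs (log2 fold change 2.99). Blnk, the adaptor downstream of the pre-B cell receptor, had 73.2, 133, 139 and 117 against 11.2 to 24.8 (log2 fold change 2.60). The coactivator Pou2af1 and the factors Lef1, Irf4 and Spib rose by log2 fold changes of 3.13, 3.13, 2.97 and 2.83, and the surface enzymes Bst1 and Enpep by 2.94 and 3.00. For all 11 of these strongly raised genes replicate 1 was the lowest NA MP sample, and for 9 of 11 replicate 4 was second. Among all genes called and over 2-fold higher these shares were 31.6% and 18.6%. The order was much the same as in the members, and whether it is particular to these genes was not tested. Of the 8 genes called higher by up to 2-fold, replicate 1 was lowest for only 3, with replicate 4 second for 2.

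Some other factors on this list had smaller log2 fold changes than Lef1, Irf4 and Spib. Bach2 was called at 1.23. Foxo1, which supports Il7r and Rag transcription, had a log2 fold change of 0.92, Sox4 of 0.62, Tcf4 of 0.53 and Erg of 0.49, all called by limma. The E protein gene Tcf3 was at 1624 to 1783 normalised counts in the NA MPs and 1506 to 1613 in the WT MPs, a log2 fold change of 0.10 (adjusted p = 0.0180) that was not called without NA MP replicate 2 (adjusted p = 0.117) or WT MP replicate 5 (0.0604). Ikzf1, Tcf12 and Bcl11a had log2 fold changes of -0.021, -0.030 and 0.029 and were not called. Cd24a, which encodes a surface protein, and the factor gene Myb fell slightly, by 0.17 and 0.095 on the log2 scale. Ikzf3, Blk, Cd38 and Ly6d, also on the list, stayed below 10 normalised counts in every sample and were not tested. Ly6d, which is on the list of lymphoid priming as well, had 11 reads in the NA MPs and 7 in the WT MPs, and its groups overlapped. Blk had 17 reads in the NA MPs and 3 in the WT MPs, and its lowest NA MP sample was above its highest WT MP sample.

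Parts of the signalling pathway below the pre-B cell receptor rose in 11 of 17 tested genes and fell in none, with a median log2 fold change of 0.12. Ighm, the constant region of the mu heavy chain, had 946, 1333, 1349 and 1094 normalised counts in the NA MPs and 792 to 883 in the WT MPs, a log2 fold change of 0.48 (adjusted p = 0.0124 by limma). It was therefore abundant in both groups, with replicate 1 again the lowest NA MP sample. The linker Lat2 rose by a log2 fold change of 1.43 and the kinase Fyn by 0.61, while Syk, the main kinase of the receptor, rose by 0.14. Plcg2 had a log2 fold change of 0.0060 with an adjusted p of 0.913.

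The repair genes that join V(D)J breaks and the partners of the recombinase were listed separately from Rag1, Rag2 and Dntt. Of 18 tested genes none rose and 3 fell, near the 17.3% of all tested genes that were called lower, and the median log2 fold change was -0.045. Atm, the kinase that senses the breaks, had a log2 fold change of -0.21, Rad50 of -0.13 and Prkdc of -0.12, though Prkdc was not called when any of 6 samples was left out (adjusted p up to 0.142) nor Rad50 without NA MP replicate 3 (0.105). Lig4, the ligase of the pathway, had a log2 fold change of 0.25 (adjusted p = 0.250 by limma), and Hmgb1, a partner of the recombinase, one of -0.0045.

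**Figure D5:**
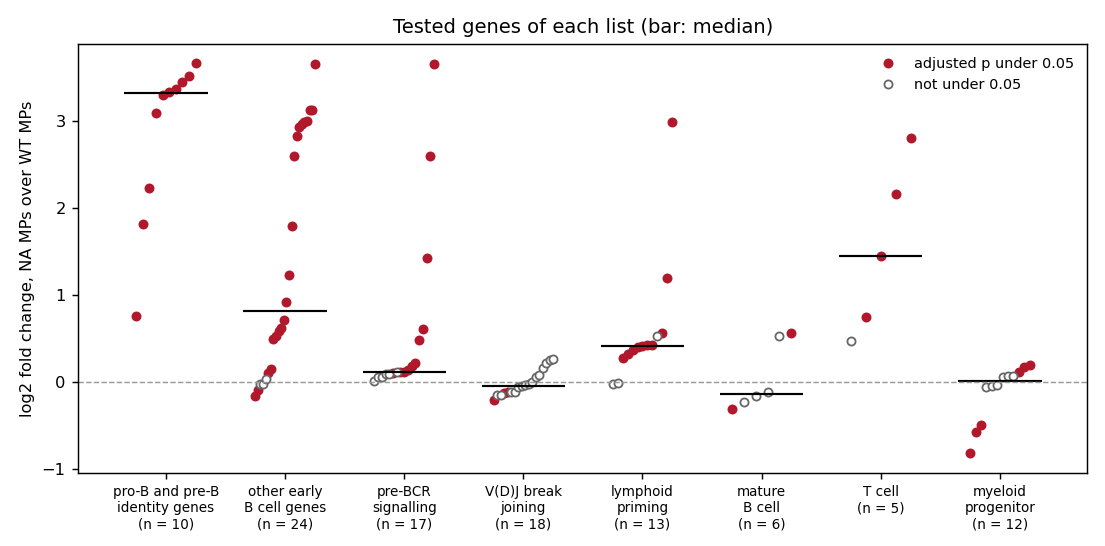
Log2 fold change in NA MPs over WT MPs of the tested genes of 8 lists, filled where the adjusted p was under 0.05, with a bar at each median and the number of tested genes under each name. The members and part of the other early B cell genes lie high, while the V(D)J joining genes lie around 0. Some genes are on more than 1 list, such as Blnk in the second and the third and Il7r in the second and the fifth.

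Markers of other lymphoid cells were examined in the same samples. Of 15 mature B cell genes found, 6 were tested, 1 rose and 1 fell, and their median log2 fold change was -0.14. Ms4a1, Cr2 and Fcer2a, which define mature B cells, were at no more than 2.48 normalised counts in any sample, and Igkc, the kappa light chain constant region, was at 0 to 5.57 in the NA MPs and 1.86 to 15.1 in the WT MPs. The summed level of the list ran from 3589 to 3994 in the NA MPs and from 2840 to 3251 in the WT MPs. H2-Aa, the gene that fell, was not called without NA MP replicate 2 (adjusted p = 0.0681 by limma). Thus the defining mature B cell transcripts were at or near 0 beside the members' rise.

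Of 21 T cell genes 5 were tested and 4 rose, and the sum of the list was 317 to 364 in the NA MPs against 119 to 161 in the WT MPs. Thy1 had 79.2, 66.7, 81.3 and 75.2 normalised counts against 6.52 to 16.0 (log2 fold change 2.80), Lck a log2 fold change of 2.16, Tcf7 1.45 and Lat 0.75. Cd3e, Cd3g and Trac, which define T cells, were at 0 in all 9 samples. Trbc1, a T cell receptor gene, was at 3.34 to 7.08 in the NA MPs and 0 to 3.24 in the WT MPs, from 19 and 6 reads, too low to be tested. Replicate 1 was the lowest NA MP sample for 3 of the 5 tested T cell genes, with replicate 4 second for 0 of them. Of 10 natural killer cell genes, 2 were tested and both rose, Gzmb from 55.0 to 63.7 normalised counts in the WT MPs to 271 to 382 in the NA MPs and Nkg7 by a log2 fold change of 0.16. Ncr1 and Eomes were at no more than 4.45, Il2rb was at 3.60 to 9.09 against 0 to 3.002 and Klrb1c at 3.03 to 8.27 against 0 to 4.08, none of them tested, and the sum of the list was 2190 to 2391 against 1728 to 1871. Of 12 plasmacytoid dendritic cell genes 6 were tested and 4 rose, with a sum of 6195 to 7299 against 6193 to 6479, while Siglech was at no more than 1.02 and Klk1 at 0 in every sample. The part of any of these cell types in the members' rise was not tested beyond these levels.

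Among 15 genes of lymphoid priming, the early lymphoid expression of progenitors, 13 were tested, 10 rose and none fell, and the median log2 fold change was 0.42. The receptor Flt3 and the chromatin organiser Satb1 both had a log2 fold change of 0.42, and Gimap6 one of 1.199, while Notch1 was at -0.011 (adjusted p = 0.875 by limma). Replicate 1 was the lowest NA MP sample for 4 of the 13, among them both genes over 2-fold higher, Il7r and Gimap6. Of 12 defining myeloid progenitor genes 3 rose and 3 fell. Their median log2 fold change was 0.0066, and Mpo itself had a log2 fold change of 0.050 (adjusted p = 0.175), which without NA MP replicate 1 was 0.073 (adjusted p = 0.00136). Of 12 surface genes listed for the gate, 7 were tested, 4 rose and 1 fell. Of the 4 that rose, Il7r and Ly6e are not named in the stain for MPs, and Ptprc and Itgam encode targets of its lineage cocktail. Kit, used to sort the cells, had a log2 fold change of -0.037 (adjusted p = 0.353), and Cd2, Cd3e and Cd8a were at no more than 1.65 normalised counts in any sample. Ptprc, which encodes the CD45 and B220 proteins and cannot tell these forms apart at the gene level, rose by a log2 fold change of 0.26.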

How the data were processed

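RNA-seq of 4 NA MP and 5 WT MP samples was analysed. Per the labels and the methods, the authors prepared libraries from polyA RNA with a TruSeq kit and used RSEM and DESeq2; the submitters' processing notes also name bcl2fastq and mm10, and versions and the use of strand are not given in the sources used here. The deposited table is called raw counts, but each column holds whole multiples of a fixed step for 97.3% to 97.6% of its values above 0.01 (tolerance 0.02), which equals gene counts divided by a size factor for each sample. It was therefore treated as a signal that the authors had normalised, called normalised counts here, and dividing a column by its step gave back its reads. The planned count test was not used on such values. The main test was limma 3.58.1 in R 4.3.3 (trend and robust options) on log2(normalised count + 1), over the genes with at least 10 in at least 4 samples, called at a Benjamini-Hochberg adjusted p under 0.05. The pseudocount understates the change of low genes. It was tested on simulated data before use. Pairs of members were compared by exact permutation tests in scipy 1.17.1.

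Groups and replicate numbers came from the sample titles. Replicates 1 to 4 occur in both groups, and no source says that a number marks a shared mouse or day. Every pair of samples within a group differed beyond sampling noise (chi-square per degree of freedom 1.20 to 2.83). Symbols matched 32916 of 37980 Ensembl identifiers, and exons, overlaps and lengths were taken from GENCODE M21 on GRCm38, the assembly also called mm10. Promoter windows were matched by symbol to RefSeq, for 9 members (10 windows); Cd79b had no entry. The members and lists were chosen with earlier results of these data known. The genes named are the members, genes of these lists, the fusion partners, genes that overlap a member, and the 5 genes most like the members over the NA MPs and over all samples; the list genes to be named were picked with their values in view, and some genes within this rule are left out here. Alternatives were another scaling, filter, threshold, pseudocount or model, the replicate number as a block, and leaving out each sample.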

Additional observations from a re-analysis of the deposited data

Results flagged for a closer look

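A sample was flagged where its gap to the nearest sample of its group was large for the range of the group by Dixon's test at 95%. Of 146 groups of values examined, 7 were flagged, and chance alone would flag about 7.3. Among the members only Ebf1 had such a value, in WT MP replicate 4 at 16.0 normalised counts, the highest WT MP value and still below all NA MPs. Among the other genes named, Bst1 was at 15.6 normalised counts in NA MP replicate 1, the lowest of the NA MPs, and Enpep at 35.6 in NA MP replicate 3, the highest. Foxo1 was at 52.0 in WT MP replicate 4 and Plcg2 at 1409 in WT MP replicate 3, each the lowest of its group. Cd24a was at 2696 in WT MP replicate 2, the highest WT MP value, and Lat2 at 272 in the same sample, the lowest.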

How the results depend on the processing

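All 10 members stayed higher in NA MPs under each alternative in which they were tested, and all 10 were called in each of the 9 fits without 1 sample. The exceptions were a filter of at least 10 in every sample, which left 6 members, all called, since the WT MPs were low for the others, and the test against a 2-fold threshold, in which Cd79b (log2 fold change 0.75) was not called. Wherever the main filter was used, Pax5, Vpreb3 and Ebf1 passed it only through their NA MP values. Their calls in these fits are no support. Over all genes, 4107 were called, 2030 higher and 2077 lower. The test against 2-fold left 189, 130 higher and 59 lower, and a threshold of 0.01 left 1376 lower among 2857. Scaling to library size only gave 1851 higher and 2332 lower, and voom on the recovered reads, chosen after seeing the data like the pseudocounts of 0.5 and 5, gave 1881 and 2335. Without 1 sample, 3625 to 3937 genes were called, 1812 to 1949 higher and 1783 to 1988 lower.

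The log2 ratio differences ran, without 1 sample, from 2.53 to 2.79 for Cd79a/Cd79b, 1.72 to 2.10 for Rag1/Rag2 and -1.57 to -1.28 for Dntt/Rag1, each with an adjusted p above 0.05 in 7 of 9 cases, where fewer samples raise the smallest p possible. They ran from -0.43 to -0.028 for Vpreb1/Igll1, from -0.53 to -0.28 for Vpreb1/Ebf1 and from -0.54 to -0.21 for Pax5/Ebf1.

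With the replicate number as a block, which drops WT MP replicate 5, 3664 genes and all 10 members were called. Among these members are Pax5, Vpreb3 and Ebf1, whose calls are no support. Deviations of same-numbered samples correlated at 0.0062, 0.0031, -0.020 and 0.057, so the numbers were not taken as pairs. DESeq2, edgeR and TMM scaling were not run, since the deposited values are not counts and the recovered reads were used only with voom, and rounding was not tried because the values were used as deposited. Depth limits Pax5 most, with 14 reads over the 5 WT MPs.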
